A study of Rattus norvegicus with 4 samples.

Results

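The genes described are Stat3, the transcription factor that carries the interleukin-6 signal into the liver cell nucleus, and 9 genes of positive acute phase plasma proteins: Orm1, Lbp, Fgg, Cp, Itih3, Crp, Serpina3n, C3 and A2m. They were taken by symbol, as the probes of the array whose platform annotation gives one of these names, and all 10 were found among the 958 genes with a named probe. They had 17 probes, 2 each for 7 genes and 1 each for Orm1, Lbp and A2m. The samples were livers of male Sprague-Dawley rats (250 to 300 g), killed 18 h after a single intraperitoneal injection of alpha-naphthylisothiocyanate (ANIT, 75 mg/kg at 7.5 mg/mL in olive oil), a toxicant of the bile ducts, or of the same volume of olive oil alone. RNA of 3 rats per treatment was mixed into 1 pool, so differences between animals cannot be seen. Both pools were hybridised together on each of 4 glass cDNA arrays of 2 colours. Arrays 1 and 3 carried the ANIT pool in Cy5, and arrays 2 and 4 carried it in Cy3.

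The acute phase response is the change in plasma proteins made by the liver after injury, infection or other inflammation. Cytokines of the interleukin-6 family bind a receptor that shares the gp130 chain, Janus kinases phosphorylate Stat3, and Stat3 dimers enter the nucleus and raise transcription of several plasma protein genes and of the Stat3 gene itself. Interleukin-1 and tumour necrosis factor act beside it through NF-kB and C/EBP factors. Because these are bulk liver pools, more cells of one type and more RNA per cell cannot be told apart.

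The values are log ratios of ANIT over olive oil, taken as log2. The table gives neither its log base nor its direction, and the direction is the likely one, since every sample title names ANIT and ANIT is the second channel on all 4 arrays. All arrays compare the same 2 RNA pools, so the treatment has 1 replicate and no test of it was made. Errors are SDs among arrays that share a dye orientation, pooled across orientations (n = 4 arrays), and measure hybridisation only. As deposited, array medians were -0.53, 0.85, -0.53 and 0.83. The mean ratios below were therefore taken after subtracting from each array the median of its 1936 probes, which lowered every mean by 0.15, while values of single arrays are given as deposited. The arrays give ratios and no levels, so the labelled tissue could not be checked against marker levels.

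In the ANIT pool 3 of the 10 genes, Orm1, Lbp and Stat3, were at least 2-fold higher and above 0 on each of the 4 centred arrays, against 12 of 958 genes (1.25%). None of the 10 was at least 2-fold lower, against 1.15% of all genes. Fgg was the 1 further gene past 1.5-fold, so that 4 of 10 genes were past it, against 34 of 958 (3.55%). Cp, Serpina3n, Itih3 and Crp lay between 1.17-fold and 1.30-fold, and C3 and A2m lay just below 0. The median log2 ratio was 0.35 over the 10 genes and -0.04 over all genes. By probe, 4 of the 17 were at least 2-fold higher, namely both of Stat3 and those of Orm1 and Lbp, against 1.55% of all 1936 probes.

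The sign of the deposited values was compared too. For 7 genes (Stat3, Orm1, Lbp, Fgg, Cp, Itih3 and Serpina3n) the value, averaged over probes, was above 0 on all 4 arrays, which held for 181 of 958 genes (18.9%). All 7 were among the 240 genes with the highest differences between dye orientations, of which 59.6% were above 0 on all 4 arrays, so the count is to be read against that share. None of the 10 was below 0 on all 4 arrays, against 4.8% of all genes. On arrays 1 and 3, 26.7% and 26.0% of all single probes were above 0, and 7 of the 10 genes, averaged over probes, were. These are the same 7 genes, so this count too is to be read against the 59.6%. On arrays 2 and 4 the shares were 92.5% and 93.0%, and all 10 genes were above 0.

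**Figure D1:**
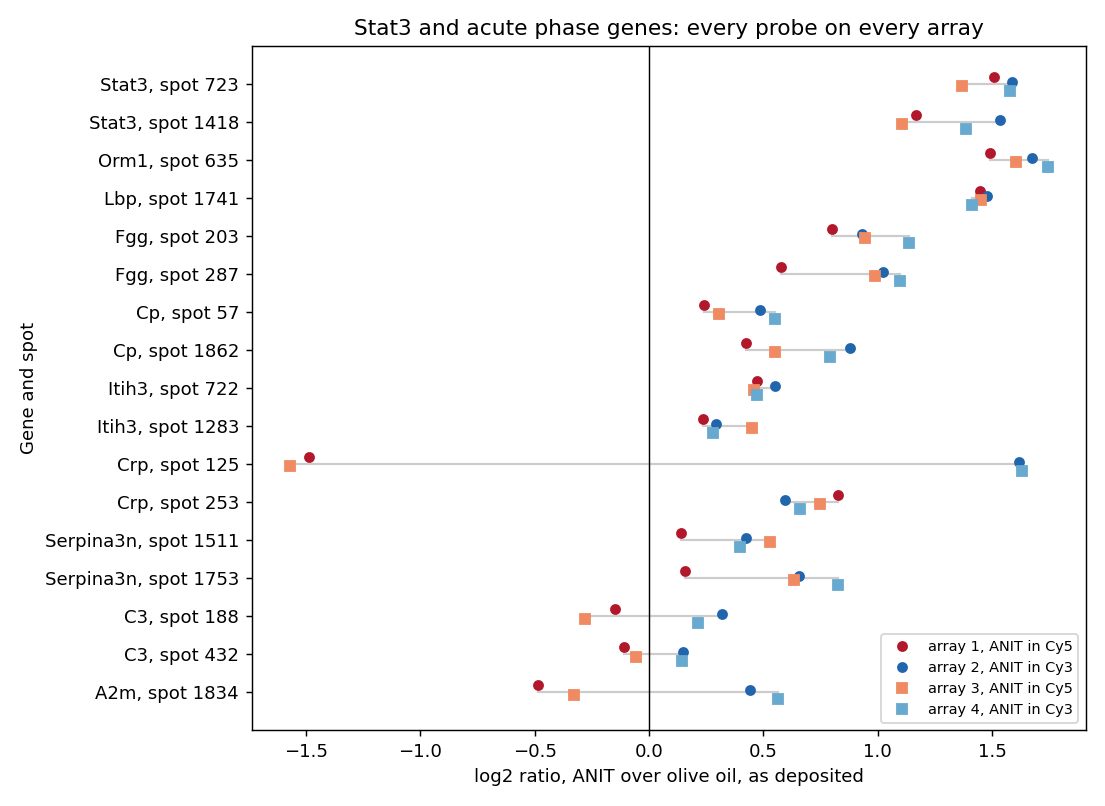
Deposited log2 ratio of ANIT over olive oil (horizontal axis) for each of the 17 probes, named by gene and spot number, with 1 symbol per array (red and orange: ANIT in Cy5, blue: ANIT in Cy3) and a grey line over the range of the 4 arrays. The probes of Stat3, Orm1 and Lbp lie above 1.1 on every array, while Crp spot 125 runs from -1.57 to 1.63.

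Stat3 itself was 2.38-fold higher (log2 ratio 1.25 ± 0.059) and stood at rank 9 of 958 genes from the highest. Its probe at spot 723 had deposited values of 1.51, 1.59, 1.37 and 1.58 on arrays 1 to 4. The probe at spot 1418 had 1.17, 1.54, 1.10 and 1.38. Both probes were thus high on every array, with arrays 1 and 3 (ANIT in Cy5) the lower ones for each. After centring, the 2 probes stood at 1.36 ± 0.071 and 1.15 ± 0.073, a gap of 0.21 that exceeds either SD. Such a gap is not unusual here, since 340 genes had several probes and the median range between them was 0.14, with Stat3 at rank 130 from the widest.

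Orm1, which encodes alpha-1-acid glycoprotein, a drug-binding plasma protein of the lipocalin family, was the highest of the 10 genes at 2.78-fold (1.48 ± 0.072, rank 5 of 958). Its single probe had 1.49, 1.67, 1.61 and 1.74 on arrays 1 to 4. Lbp, the lipopolysaccharide-binding protein that hands bacterial endotoxin to CD14, was 2.45-fold higher (1.29 ± 0.025, rank 8). Its single probe had 1.45, 1.48, 1.45 and 1.41, so that the arrays of both dye orientations overlapped. This was the smallest SD among the 10 genes, against a median of 0.068 over all genes. Orm1, Lbp and Stat3 spanned 1.25 to 1.48, about the gap between the probes of Stat3 alone, so their order cannot be read from these arrays.

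Fgg, the gamma chain of the clotting protein fibrinogen, was 1.72-fold higher (0.79 ± 0.16, rank 22). Its probe at spot 203 had 0.80, 0.93, 0.95 and 1.14 on arrays 1 to 4. The probe at spot 287 had 0.58, 1.02, 0.99 and 1.10, with array 1 apart from the rest. The probes nevertheless agreed closely on the mean after centring, at 0.80 and 0.77. Fgg lay below Stat3, the lowest of the 3 genes past 2-fold, by more than its own SD. Its place under 2-fold depends on the log base, since read as natural logs or log10 its mean was 1.13 or 2.61 on the log2 scale. In base 2 it depends on the zero and the dye. The mean was 1.36 on the centred arrays with ANIT in Cy5 and 0.21 on those with ANIT in Cy3. As deposited it was 0.83 with ANIT in Cy5 and 1.05 with ANIT in Cy3.

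The next 3 genes were above 0 on every array as deposited but under 1.5-fold. After centring, all 3 were below 0 on both arrays with ANIT in Cy3. Their means over those arrays were -0.16 for Cp, -0.44 for Itih3 and -0.26 for Serpina3n, so their sign depends on the zero and the dye. Cp, the copper-carrying plasma ferroxidase ceruloplasmin, stood at 0.38 ± 0.048 (1.30-fold). Its probe at spot 57 had 0.24, 0.49, 0.30 and 0.55, and the probe at spot 1862 had 0.42, 0.88, 0.55 and 0.79. The second probe was higher on each of the 4 arrays, and in both the arrays with ANIT in Cy3 were higher than those with ANIT in Cy5.

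Itih3, a heavy chain of the inter-alpha-trypsin inhibitor family that binds hyaluronan, stood at 0.25 ± 0.052 (1.19-fold). Its probe at spot 722 had 0.47, 0.55, 0.46 and 0.47, and that at spot 1283 had 0.24, 0.29, 0.45 and 0.28. All 8 values were above 0 and no dye orientation was the higher one, with a difference between orientations of 0.0058 for the gene.

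Serpina3n, a secreted inhibitor of serine proteinases, stood at 0.32 ± 0.22 (1.25-fold). Its probe at spot 1511 had 0.14, 0.42, 0.53 and 0.40, and that at spot 1753 had 0.16, 0.65, 0.63 and 0.83. Array 1 was the lowest for both probes, and this gene had the largest SD of the 10. Without array 1 its mean was 0.43 (0.425), and without array 3 it was 0.21 (0.209). Serpina3c, a close relative measured with 3 probes, had -0.11 ± 0.054; whether the spotted cDNAs tell these relatives apart was not tested. The gaps between Cp, Serpina3n, Itih3 and Crp were smaller than the SD of Serpina3n.

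C3, the central protein of the complement cascade, did not stand above 0 after centring (-0.12 ± 0.027). Its probe at spot 188 had -0.15, 0.32, -0.28 and 0.21, and that at spot 432 had -0.11, 0.15, -0.058 and 0.14. Both probes were thus below 0 with ANIT in Cy5 and above 0 with ANIT in Cy3, and their centred means were -0.13 and -0.12. A2m, alpha-2-macroglobulin, a broad proteinase inhibitor and in rats a classic interleukin-6 responsive plasma protein, had -0.10 ± 0.11 from a single probe. Its deposited values were -0.48, 0.44, -0.33 and 0.57, again split by dye. The sign of both genes depends on the zero, since their means as deposited were 0.03 for C3 and 0.05 for A2m.

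Crp, a pentraxin that in rats is already abundant in plasma without inflammation, gave different readings from its 2 probes. The probe at spot 253 had 0.83, 0.59, 0.75 and 0.66 on arrays 1 to 4, above 0 on every array, and a centred mean of 0.55 ± 0.058 (1.47-fold). After centring, spot 253 was below 0 on both arrays with ANIT in Cy3 (-0.25 and -0.17). The probe at spot 125 had -1.49, 1.62, -1.57 and 1.63, so that its sign followed the dye, and its centred mean was -0.10 ± 0.046. Averaged, the gene stood at 0.22 (1.17-fold), a value that neither probe showed. The difference between dye orientations, ANIT in Cy5 less ANIT in Cy3, was 0.16 for spot 253 and -3.15 for spot 125. This range of 3.31 was the widest of the 340 genes with several probes, whose median range was 0.63, whereas the other 6 such genes among the 10 ranged over 0.10 to 0.27.

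Differences between dye orientations bear on how far a ratio near 0 can be read. Over all genes their median was -1.24, and over the 10 genes it was -0.23. In the 240 genes with the most negative differences, from -3.19 to -1.96, the centred mean ratios had an SD of 0.09, and 0 genes were at least 2-fold higher. In the next 239 genes, up to -1.24, the SD was 0.22, 0 genes were at least 2-fold higher and 1 was at least 2-fold lower. Crp, averaged over probes, lay in this second set. In the 240 genes at the other end, from -0.47 to 0.24, the SD was 0.51 and 7 genes (2.92%) were at least 2-fold higher. Of the 10 genes, 8 were in that last set, where Orm1 stood at rank 4, Lbp at 6, Stat3 at 7, Fgg at 15, Cp at 44, Serpina3n at 57, Itih3 at 70 and C3 at 181 of 240. C3, at -0.12, lay below the median of that set (0.10) but within 1 SD of it, so it is not read as lowered. A2m (-0.91) lay in the adjacent set of 239 genes, from -1.24 to -0.47, where the SD was 0.39, and spot 125 of Crp lay at the 1.5 percentile of all probes. Spot brightness was not analysed here, and its part in these differences was not tested.

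**Figure D2:**
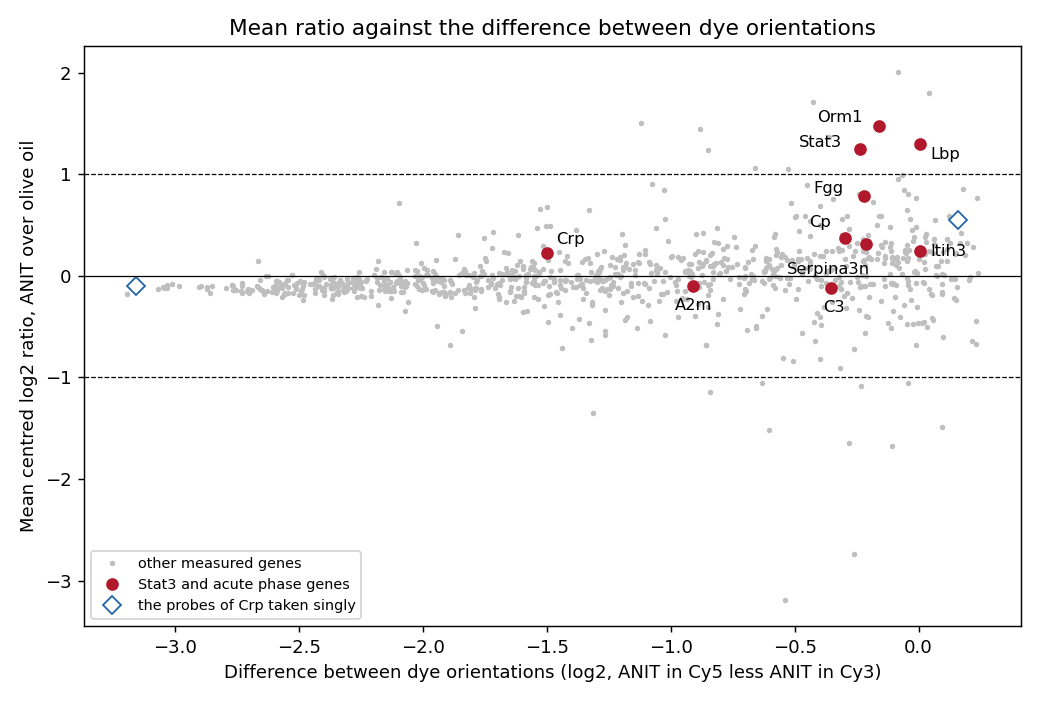
Mean centred log2 ratio (vertical axis) against the difference between dye orientations (horizontal axis) for all 958 genes (grey), with the 10 genes in red, the 2 probes of Crp as blue diamonds, and dashed lines at 2-fold. Mean ratios spread with an SD of 0.09 at the left end and 0.51 at the right, where 8 of the 10 genes lie.

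The zero of the ratios was set in several ways. Orm1, Lbp and Stat3 stayed above 2-fold, and Fgg between 1.5-fold and 2-fold, as deposited, with arrays centred on Hprt1 and Actb, and with each probe centred on the 200 probes of nearest dye difference. In that last setting the means were 1.39, 1.32, 1.16 and 0.69. Centring on array medians moves both dye orientations apart for these genes. Lbp, with a difference between orientations of 0.0043 as deposited, had 1.98 on the centred arrays with ANIT in Cy5 and 0.61 on those with ANIT in Cy3. With the centred arrays of ANIT in Cy5 alone 4 of the 10 genes, Fgg with the other 3, were at least 2-fold higher, against 6.16% of all genes. With the centred arrays of ANIT in Cy3 alone 0 of the 10 genes were at least 2-fold higher, against 0.626% of all genes. As deposited these arrays gave 5 of the 10, but also 341 of 958 genes (35.6%), so nothing is read from the 5. The deposited arrays with ANIT in Cy5 gave Stat3, Orm1 and Lbp, against 1.36% of all genes. Read as a dye ratio, with the sign turned on arrays 2 and 4, the table gave 0 of the 10 genes and 0 of all genes at 2-fold.

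**Figure D3:**
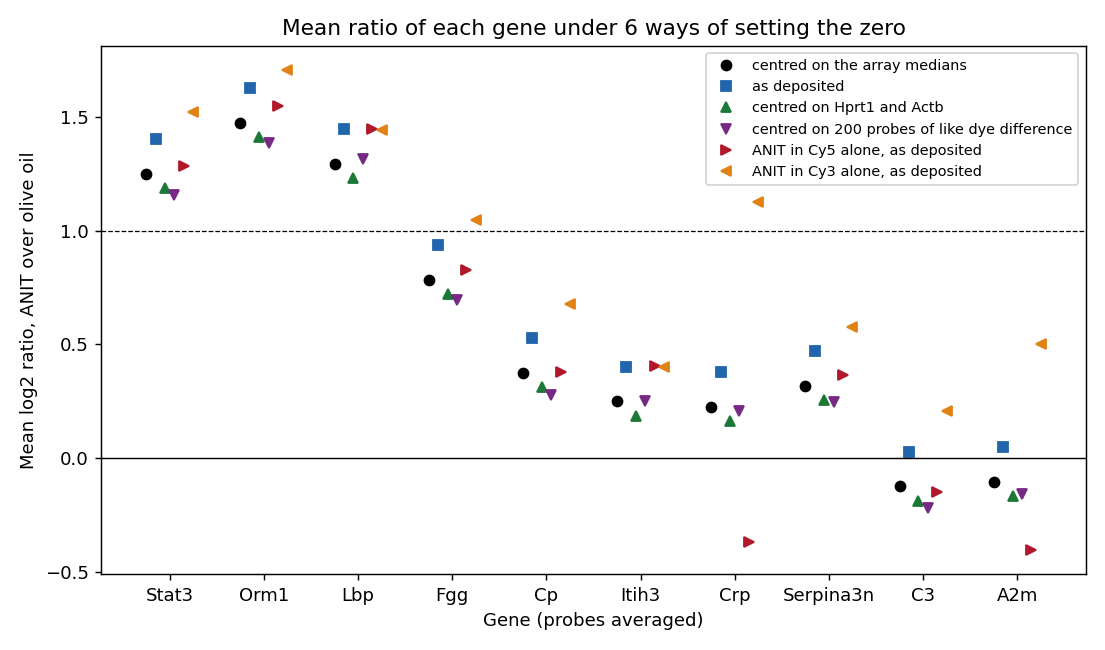
Mean log2 ratio of each of the 10 genes (horizontal axis, probes averaged) under 6 ways of setting the zero, with 1 symbol per setting and a dashed line at 2-fold. Stat3, Orm1 and Lbp lie above the line in all 6 settings, and Crp, C3 and A2m differ in sign between the dye orientations as deposited. With ANIT in Cy3 alone as deposited, 35.6% of all genes were at least 2-fold higher. The centred arrays with ANIT in Cy3 alone, not drawn, gave 0.69 for Stat3, 0.87 for Orm1 and 0.61 for Lbp, all below the line.

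Promoter sequences were available for 8 of the 10 genes in the RefSeq promoter table of rat assembly GRCr8. They are shown for the highest gene, for Fgg, and for Serpina3n and C3, which hold matches without standing at 1.5-fold. The 250 bases before the start of transcription were searched on both strands for TTCNNNGAA, the core that STAT dimers bind, for CTGGGAA, a core of the interleukin-6 responsive element first described in plasma protein genes, and for TTNNGCAA, a C/EBP core. Capitals mark every match.
Orm1 (chr5:81788259-81788508, + strand): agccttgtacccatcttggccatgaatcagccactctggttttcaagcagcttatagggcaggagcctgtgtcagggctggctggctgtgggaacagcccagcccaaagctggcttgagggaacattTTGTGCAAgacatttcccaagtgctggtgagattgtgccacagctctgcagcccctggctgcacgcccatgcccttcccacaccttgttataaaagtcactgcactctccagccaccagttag
Fgg (chr2:170652833-170653082, + strand): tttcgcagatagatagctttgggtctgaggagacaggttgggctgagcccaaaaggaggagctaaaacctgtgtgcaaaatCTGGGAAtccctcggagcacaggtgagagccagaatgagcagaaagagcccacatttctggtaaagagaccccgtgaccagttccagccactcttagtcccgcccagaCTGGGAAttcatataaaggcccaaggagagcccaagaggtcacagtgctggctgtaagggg
Serpina3n (chr6:129088142-129088391, + strand): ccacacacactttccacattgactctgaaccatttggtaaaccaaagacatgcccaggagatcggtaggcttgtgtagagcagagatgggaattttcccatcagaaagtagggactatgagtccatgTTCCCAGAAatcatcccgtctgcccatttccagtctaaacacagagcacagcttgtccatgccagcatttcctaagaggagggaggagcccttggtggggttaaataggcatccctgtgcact
C3 (chr9:2201340-2201589, - strand): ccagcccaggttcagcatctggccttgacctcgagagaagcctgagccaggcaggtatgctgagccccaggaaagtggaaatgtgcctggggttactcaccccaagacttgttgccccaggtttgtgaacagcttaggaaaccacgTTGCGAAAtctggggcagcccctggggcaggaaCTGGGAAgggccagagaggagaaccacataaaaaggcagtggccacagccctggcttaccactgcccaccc

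The STAT core was found in 1 of the 8 promoters, that of Serpina3n (TTCCCAGAA, starting 123 bases before the start), against 7.67% of 33469 promoters in the table. CTGGGAA was found in Fgg, with 2 copies starting 169 and 61 bases before the start, in C3, and in Serpina3n on the other strand within the STAT match, so in 3 of 8 against 9.56% of all. The C/EBP core was found in Orm1 and Cp, in each as TTGTGCAA, and in C3 on the other strand, again 3 of 8 against 9.22%. The promoters of Stat3, Itih3 and Crp held none of these letters in this window. Matches thus occurred both in genes past 1.5-fold (Orm1 and Fgg) and in genes near 0 (C3), and a match describes letters, not binding.

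Genes of the pathway around Stat3 were taken from fixed lists, of which the array named only a part. Of 30 listed genes of interleukin-6 family signalling 5 were measured, and 0 were past 1.5-fold. Il6st, the gp130 receptor chain, had -0.11 ± 0.092, the receptor gene Il6r -0.09, the kinase gene Jak2 -0.02, the feedback inhibitor gene Socs1 0.0007 over 8 probes, and Stat5b -0.14. Their median was -0.09, beside 1.25 for Stat3. The dye difference was -3.05 for Il6st and between -1.25 and -0.84 for the other 4. The ratio of Il6st thus lies where no gene passed 2-fold. Jak2 (-1.25) lies in the second set, where 0 genes were at least 2-fold higher. Of 31 genes of interleukin-1, tumour necrosis factor and NF-kB signalling 10 were measured and 0 were past 1.5-fold by the rule, with a median of 0.07. Il1r1, the signalling interleukin-1 receptor, was highest at 0.56 ± 0.037 (1.48-fold) and above 0 on every array as deposited (0.52 to 0.87). Icam1, an adhesion molecule, followed at 0.33, Il1rap, the co-receptor, at 0.18 and Il1r2, the decoy receptor, stood at -0.16. The cytokine genes Il1b, Il1a and Tnf had -0.10, 0.02 and -0.04. Their dye differences were -2.54, -1.95 and -0.39, and that of Il1r2 was -2.59. The ratios of Il1b and Il1r2 thus lie, like that of Il6st, where no gene passed 2-fold. Il1a lies, like Jak2, in the second set, where 0 genes were at least 2-fold higher.

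Among 11 measured of 18 listed Stat3 target genes that encode no plasma protein of the 10, 2 were past 1.5-fold. Over all genes 34 of 958 (3.55%) were, and the median of the 11 was 0.33. The 2 were Pim3, a serine/threonine kinase, at 0.84 ± 0.023 (1.79-fold), and Egr1, an immediate early transcription factor, at 0.71 ± 0.11 (1.64-fold). Pim3 was above 0 on all 4 arrays as deposited (0.46 to 1.52), whereas Egr1 ran from -0.20 to 2.03. The dye difference of Egr1 was -2.10, in the set where ratios had an SD of 0.09 and 0 genes were at least 2-fold higher. Myc had 0.49, Cebpd, a C/EBP factor of the acute phase, 0.41 ± 0.037, Irf1 0.33 and Ccnd1, cyclin D1, -0.21. Of 3 measured liver transcription factors of acute phase genes out of 15 listed, Cebpd was the highest, Fos had 0.24, and Nr3c1, the glucocorticoid receptor, was the lowest at -0.40 ± 0.0086 over 3 probes.

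Of 26 further positive acute phase genes 5 were measured, with a median of 0.32 and 0 past 1.5-fold by the rule. The share over all genes was 3.55%. Fgl1, a fibrinogen-like protein secreted by hepatocytes, had 0.77 ± 0.020 (1.70-fold) and was between 0.79 and 1.04 on every array as deposited. It missed the rule because both centred arrays with ANIT in Cy3 lay below 0 (-0.055 and -0.016). Fn1, fibronectin, had 0.38, Serping1, the C1 inhibitor, 0.32, Timp1 -0.15 and Serpina1, alpha-1-antitrypsin, -0.13. The last 2 had dye differences of -1.77, against 0.02 to 0.24 for the first 3, and so lie where 0 genes were at least 2-fold higher. Of 16 negative acute phase genes 6 were measured, with a median of -0.20 (-0.05 as deposited) and 0 past 1.5-fold by the rule in either direction. Over all 958 genes 34 were higher and 21 lower by it. Apoa1, the chief apolipoprotein of HDL, had -0.68 ± 0.11 and Igfals, the acid-labile subunit that carries insulin-like growth factors, -0.56 ± 0.053, both below 0 on every array as deposited. Ttr and Tf, the plasma carriers transthyretin and transferrin, had -0.20 each, with both signs among the arrays as deposited. Gc had -0.07, and Apoa4 went the other way at 0.18, so a fall of these genes as a set is not read. Of the complement and coagulation list, Vtn, vitronectin, was the 1 of 30 genes measured (0.01), and of 32 relatives of the genes 3 were measured, between -0.14 and -0.11.

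**Figure D4:**
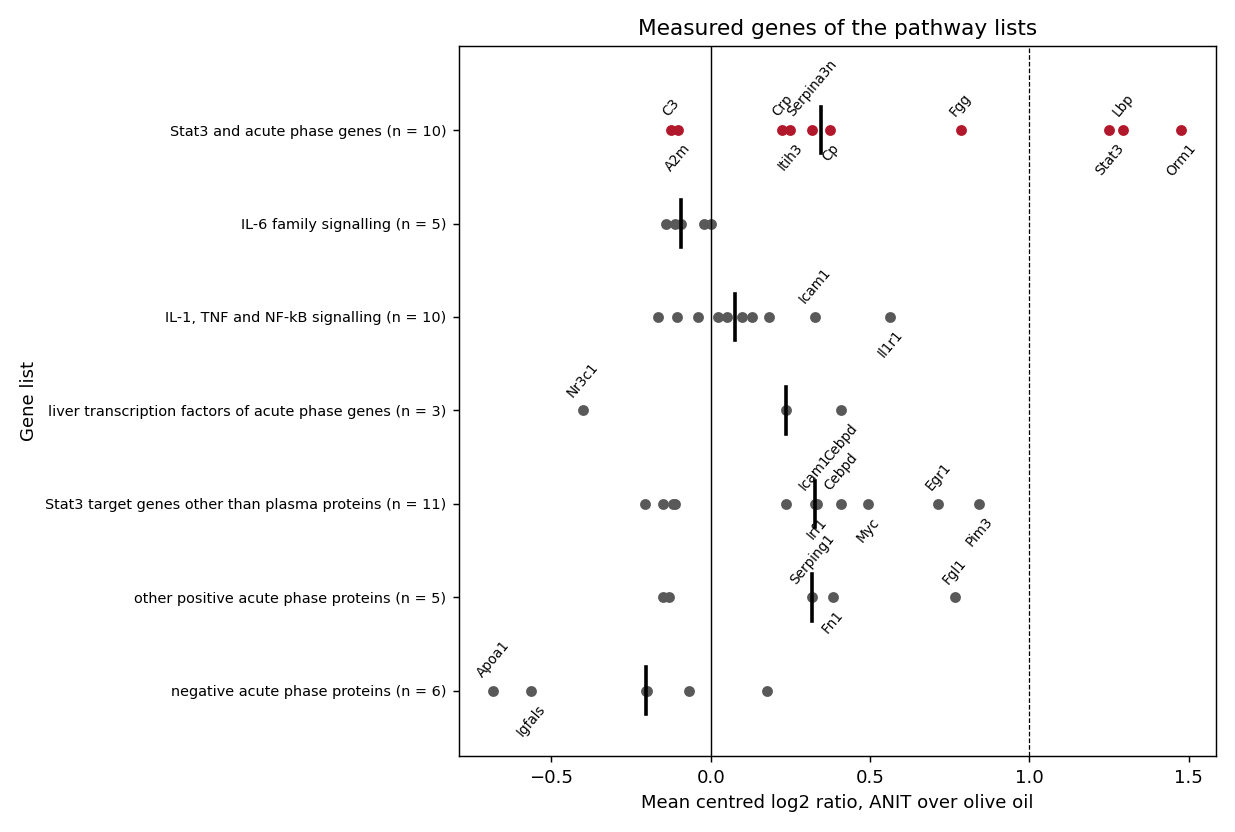
Mean centred log2 ratio (horizontal axis) of every measured gene of 7 gene sets, with 1 point per gene, a black bar at each median and a dashed line at 2-fold, and names for the 10 genes and for others at least 0.3 from 0. The 10 genes have a median of 0.35, interleukin-6 family signalling genes -0.09 and negative acute phase genes -0.20. As deposited, the interleukin-6 family median was 0.06 and the negative acute phase median -0.05.

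Markers of other cells were few. None of 10 listed macrophage genes had a named probe, and of 12 neutrophil genes only S100a9 did, with 0.04 and a dye difference of -2.13. Of 10 cholangiocyte genes 4 were measured, from -0.12 to 0.34 (Clu), and of 8 endothelial genes 3, from -0.25 to -0.04. Of 10 stellate cell genes 4 were measured, from -0.71 (Ngfr) to 0.19. Ngfr had an SD of 0.99, with deposited values of 1.16 and -0.84 on arrays 2 and 4 of the same dye orientation, so its ratio is not read. Of 10 hepatocyte genes 3 were measured, Apoa1, Ttr and Tf as above. The part of infiltrating or other cells in the ratios of Stat3 and the acute phase genes was not tested.

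The genes most like the 3 higher ones were sought among the genes other than the 10, by Euclidean distance over the 4 centred arrays. Nr0b2, the bile acid responsive nuclear receptor SHP (1.36 ± 0.098), was the nearest of these to each, at 0.26 from Stat3, 0.39 from Orm1 and 0.41 from Lbp. Next among these came Por (0.50) and Sytl1 (0.56) for Stat3, Sqstm1 (0.56) and Mt1 (0.68) for Orm1, and Sytl1 (0.62) and Cavin3 (0.70) for Lbp. With 4 arrays of the same pools, nearness reflects the size of the ratio and the dye difference alone.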

How the data were processed

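Per the labels' protocols, poly(A) RNA of the pools was reverse transcribed with Cy3 or Cy5 nucleotides and hybridised to glass cDNA arrays with a technical dye swap. The deposited log2 values are log ratios of both channels. The labels and the file header do not state their log base, normalization or direction. All arrays were read in the same direction because the largest ratios keep their sign across dyes. That this direction is ANIT over olive oil was taken from the titles and channels. Over all probes, however, Pearson's r was -0.38 to -0.37 between opposite orientations (0.96 to 0.98 within one). Spearman's coefficient was -0.61 to -0.60 between opposite orientations (0.95 to 0.98 within one).

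Of 1936 probes, 1432 had 1 gene symbol, 19 several and 485 none here; 1429 were matched by Entrez identifier to RefSeq genes of GRCr8. The annotation names no build for the probes, so they have no coordinates here. Probes of a gene were averaged, then arrays within and over dye orientations. A gene was counted at a mean of at least 2-fold (or 1.5-fold) with 1 sign on all 4 centred arrays. All 4 arrays count as 1 replicate, so no p-values were computed, and the number of arrays limits the precision. The members, lists and alternatives were chosen with earlier results of these data known. Named list genes were those past 1.5-fold and up to 4 more by size. Socs1, Il1b, Il1a, Tnf, Ccnd1, Gc, Apoa4 and the marker genes were added after their values were seen. Some of the steps were tested on simulated data. Recovery of a changed gene that also has a dye difference, after centring on array medians, was not tested. Python 3.11.15, numpy 2.4.6, pandas 2.3.3 and matplotlib 3.10.9 were used.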

Additional observations from a re-analysis of the deposited data

How the results depend on the processing

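With each array left out in turn, Orm1, Lbp and Stat3 remained at least 2-fold higher, Fgg remained past 1.5-fold, and 12 to 13 of all genes were at least 2-fold higher. With 1.5-fold in place of 2-fold 34 of all genes were counted. At 3-fold 0 of the 10 genes and 3 of all genes were. With the centred arrays of ANIT in Cy5 alone, 4 of the 10 and 59 of all genes were past 2-fold, and 7 of the 10 and 183 of all past 1.5-fold. With those of ANIT in Cy3 alone 0 of the 10 and 6 of all were past 2-fold, and 3 of the 10 (Stat3, Orm1 and Lbp) and 44 of all past 1.5-fold. As deposited, an alternative added after seeing the data, the arrays with ANIT in Cy3 gave 5 of the 10 and 341 of all past 2-fold. Read as natural logs or log10, 27 or 57 of all genes and, in either case, 4 of the 10 were past 2-fold, Fgg among them. Read as a dye ratio, 0 of the 10 and 0 of all were past 2-fold. Past 1.5-fold in that reading were 1 of the 10, Itih3, and 125 of all 958 genes (13%), so nothing is read from Itih3. Taking 1 probe per gene left the 10 genes' counts unaltered but moved Crp to -0.10 (smallest SD) or 0.55 (largest ratio), and Cp to 0.24 or 0.51. As deposited, C3 and A2m stood above 0. None of the 10 was 2-fold lower in any setting. The log base, the direction and spot brightness remain unknown.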

Other observations

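Arrays 1 and 3 differed for some plasma protein probes, and which of them was off cannot be told from 2 arrays per orientation. The centred value on array 3 exceeded that on array 1, of the same dye orientation, by 0.47 for Serpina3n spot 1753, 0.39 for Serpina3n spot 1511 and 0.41 for Fgg spot 287. Each of these gaps was at or above the 98.2 percentile in size over all 1936 probes. The second probe of Fgg differed by 0.15 (71.5 percentile), and Lbp by 0.0047 (2.58 percentile). Between arrays 2 and 4 the deposited values of both Serpina3n probes differed by -0.02 and 0.17.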
